A study of Mus musculus with 2 samples.

Results

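Ionotropic glutamate receptor subunits were examined in single cells of the mouse cerebral cortex at embryonic day (E) 16.5. The set held 9 genes, taken by symbol from the 32285 genes listed: *Gria1*, *Gria2*, *Gria3* and *Gria4*, which encode the AMPA receptor subunits, and *Grin1*, *Grin2a*, *Grin2b*, *Grin2d* and *Grin3a*, which encode NMDA receptor subunits. All 9 passed the filter on low counts in each comparison below. There were 2 single-cell RNA sequencing libraries, named replicate 1 and replicate 2, both with the genotype WT. The animals were controls of an *Eomes-Cre* line, and their sample titles read EomesDot. No mutant or treated group was compared, so every difference lies between cell types of the same libraries. How many embryos went into each library is not given by the labels, and p-values therefore measure only the spread between these libraries, which may be technical.

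AMPA receptors are tetramers that carry most of the fast excitatory current at synapses. The subunit encoded by *Gria2*, once its mRNA has been edited, makes the channel nearly impermeable to calcium, and receptors without it let calcium through. NMDA receptors combine the obligatory subunit encoded by *Grin1* with *Grin2* or *Grin3* subunits. With *Grin2* subunits they need glutamate, a co-agonist and depolarization to open fully, and they pass calcium. In the embryonic forebrain *Grin2b* is known as the prevailing *Grin2* gene, whereas *Grin2a* is known to gain later. Both receptor types are found on migrating neurons and on progenitors before synapses form.

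Replicate 1 held 9049 cell barcodes with 46398156 unique molecular identifiers (UMIs, each marking 1 captured RNA molecule), and replicate 2 held 13556 barcodes with 64324236 UMIs. Cells with 1500 to 60000 UMIs and under 10% mitochondrial UMIs were kept, which left 5966 and 10247 cells. The libraries shared 40 barcodes, of which 21 were kept in both. Cells were assigned to types by gates on marker genes that include no glutamate receptor gene, and 10625 of the 16213 kept cells entered a gate. Types are named "-like" because the names rest on markers. Markers kept out of the gates were higher in their own gate than in the median of the other gates in both libraries, with 1 exception. Of the 4 such markers of subplate neurons, 0 were higher in the excitatory neurons gated on *Nr4a2*, *Cplx3* or *Ccn2*, and these cells are therefore called *Nr4a2*/*Cplx3*/*Ccn2*-gated neurons and not subplate neurons. The gates on medial ganglionic eminence (MGE) and caudal ganglionic eminence (CGE) interneurons, on striatal projection neurons and on cycling GABAergic progenitors hold cells of ventral origin. Levels are given as CPM, the UMIs of a gene summed over the cells of a gate in 1 library, scaled to the total UMIs of that sum.

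Of the 9 genes, 4 had a promoter entry in RefSeq for GRCm38.p6, each running from 250 bases before a transcription start to 50 bases after it. The promoters of *Gria2* and *Gria4* are shown because these genes moved in opposite directions between excitatory neurons and MGE interneurons, as described below. *Gria2* (ENSMUSG00000033981) lies at chr3:80681450-80804227 and its promoter window at chr3:80802786-80803085 on the minus strand. That window begins inside the outermost bounds of the gene, so it belongs to an internal annotated start. *Gria4* (ENSMUSG00000025892) lies at chr9:4417893-4796234 and its window at chr9:4796185-4796484, also on the minus strand. Capitals mark the match to the E-box CANNTG, the motif bound by basic helix-loop-helix factors.
Gria2: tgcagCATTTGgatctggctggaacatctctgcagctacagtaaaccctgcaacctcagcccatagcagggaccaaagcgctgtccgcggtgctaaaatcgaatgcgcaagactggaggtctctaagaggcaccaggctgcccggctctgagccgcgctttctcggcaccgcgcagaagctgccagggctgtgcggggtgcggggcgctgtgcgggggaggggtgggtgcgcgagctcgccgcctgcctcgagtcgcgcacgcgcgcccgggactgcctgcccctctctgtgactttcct
Gria4: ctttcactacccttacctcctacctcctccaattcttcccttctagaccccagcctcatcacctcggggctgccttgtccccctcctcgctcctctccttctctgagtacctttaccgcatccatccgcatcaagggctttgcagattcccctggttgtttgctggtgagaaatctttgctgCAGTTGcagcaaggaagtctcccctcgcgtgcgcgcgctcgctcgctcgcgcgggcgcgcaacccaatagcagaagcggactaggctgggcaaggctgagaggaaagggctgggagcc

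The window of *Gria2* was 65.7% G or C and that of *Gria4* 59.7%. Each held 1 E-box, a motif present in 72.3% of the 32851 promoter windows in the table. The *Gria2* match begins at base 6 and the *Gria4* match at base 183 of the window. Neither window held the GC box GGGCGG, present in 35.7% of all windows, the homeodomain core TAATTA, present in 5.29%, or the TATA box TATAAA, present in 13.6%. All motifs were searched on both strands. The other entries were those of *Grin1*, with 1 GC box and 4 E-boxes, and of *Grin2d*, with 1 E-box. The remaining genes lie at chr11:57011571-57330244 (*Gria1*), chrX:41400819-41678601 (*Gria3*), chr2:25291177-25319187 (*Grin1*), chr16:9567901-9996083 (*Grin2a*), chr6:135713221-136173615 (*Grin2b*), chr7:45831883-45871194 (*Grin2d*) and chr4:49661611-49846023 (*Grin3a*). The antisense gene *Grin1os* at chr2:25291258-25298660 lies within *Grin1*. Whether the counting used strand is not stated, so reads of this pair may not have been told apart, and the low levels of *Grin1* are uncertain to that extent.

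*Gria1*, whose subunit is known for its activity-dependent delivery to synapses, was highest in MGE interneuron-like cells, at 1686 CPM in replicate 1 and 2145 CPM in replicate 2. Striatal projection neuron-like cells followed with 277 and 375 CPM, Cajal-Retzius-like cells with 226 and 259 CPM, and CGE interneuron-like cells with 240.5 and 232 CPM. The MGE values were thus far from the next gate, while the Cajal-Retzius and CGE values overlapped. Excitatory neuron-like gates lay between 97.5 and 159 CPM, intermediate progenitor-like cells held 43.7 and 44.1 CPM, and radial glia-like cells 9.76 and 14.2 CPM. The erythroid-like gate, whose cells should lack receptor RNA, held 27.6 and 41.9 CPM of *Gria1*, so the radial glial level is at or below background.

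*Gria2* was highest in excitatory neurons. Upper-layer-like neurons held 1470 and 1367 CPM and newborn excitatory-like neurons 1307 and 1298 CPM. Layer 5-like neurons had 1024 and 1015 CPM, and layer 6-like neurons 795 and 783 CPM. These gates stood apart from one another in both libraries, and each lay above every GABAergic gate, of which the striatal one was highest at 415 and 404 CPM. MGE interneuron-like cells held 304 and 308 CPM. The lowest neural values were those of radial glia-like cells, 143 and 165 CPM, and of cycling GABAergic progenitor-like cells, 157 and 149.9 CPM, which overlapped each other and were above the erythroid-like values of 98.4 and 109 CPM and the endothelial-like values of 23.7 and 21.2 CPM.

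*Gria3* was highest in layer 6-like neurons, at 180.3 and 190.2 CPM, followed by the *Nr4a2*/*Cplx3*/*Ccn2*-gated neurons with 169 and 113 CPM and newborn excitatory-like neurons with 120.4 and 109.8 CPM. The latter pair overlapped. Upper-layer-like neurons held 64.3 and 56.2 CPM, and CGE interneuron-like cells were lowest with 10.3 and 12.4 CPM. Among progenitors, radial glia-like cells held 51.1 and 44.4 CPM and Olig-positive glial progenitor-like cells 86.1 and 95.6 CPM, more than any of the 4 GABAergic gates, where the highest value was 40.5 CPM.

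*Gria4*, which encodes a subunit with fast kinetics that is known from interneurons, reached 1718 and 1864 CPM in MGE interneuron-like cells. CGE interneuron-like cells came next with 375 and 277 CPM. The *Nr4a2*/*Cplx3*/*Ccn2*-gated, Cajal-Retzius-like and striatal projection-like gates overlapped their neighbours, between 205 and 267 CPM. Cycling GABAergic progenitor-like cells held 184 and 169 CPM, or 127 and 107 CPM without cells marked as doublets, whereas radial glia-like cells held 41.4 and 34.5 CPM, close to the erythroid-like 25.6 and 39.7 CPM.

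**Figure D1:**
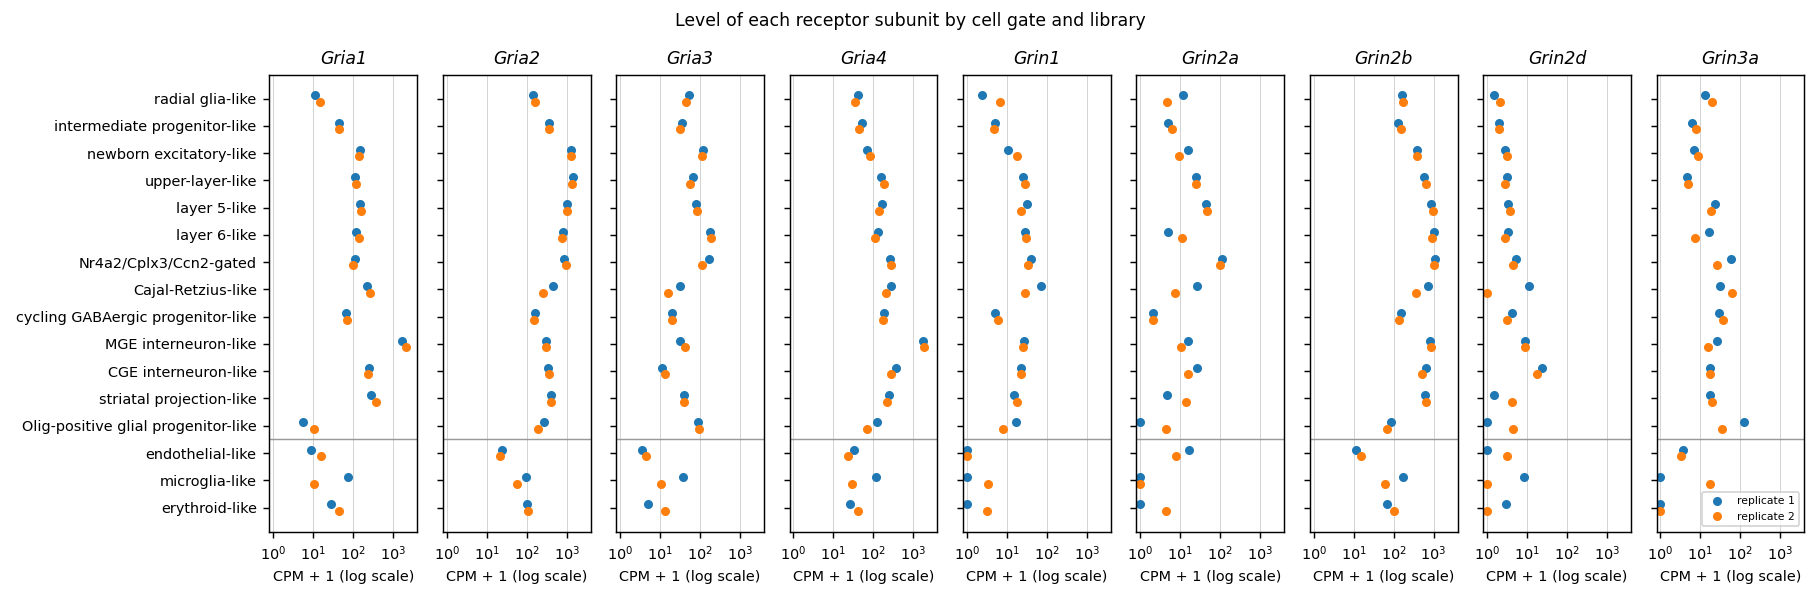
Level of each of the 9 receptor genes (x axis, CPM + 1 on a log scale) in 13 neural gates and, below the grey line, 3 gates of other cells, with 1 point per library. *Gria1* and *Gria4* stand apart in MGE interneuron-like cells, and *Gria2* is highest in upper-layer-like and newborn excitatory-like neurons.

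The share of cells with a UMI showed the same pattern once depth was made equal. Each cell was thinned to 1500 UMIs. *Gria1* was then found in 69.7% and 75.9% of MGE interneuron-like cells (77.9% and 84.3% before thinning) and in 13.2% and 14.7% of upper-layer-like neurons (35.9% and 37.3%). *Gria2* was found in 84.5% and 82.7% of upper-layer-like neurons (99.4% and 98.9%) and in 34.4% and 33.5% of MGE interneuron-like cells (54.2% and 56.2%). In erythroid-like cells, thinned shares were 2.23% and 2.99% for *Gria1* and 7.07% and 8.43% for *Gria2* (3.55% and 5.68%, and 12.1% and 15.7%, before thinning). Median depths were 3332 and 3668 UMIs in the MGE gate, 6973 and 5799 in the upper-layer gate and 2825 and 3215 in the erythroid gate. For *Gria1* the order of these gates was therefore not that of their depth. For *Gria2* the order was that of depth, and it stayed the same after thinning to equal depth.

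Within the AMPA family, the composition of the UMIs differed widely between MGE interneuron-like cells and the excitatory gates. UMIs were not adjusted for transcript length, so shares are compared between gates and not between genes. *Gria2* made up 7.60% ± 0.745 (SD, n = 2 libraries here and below) of the AMPA UMIs in MGE interneuron-like cells, against 80.6% ± 1.44 in upper-layer-like, 79.7% ± 0.133 in newborn excitatory-like, 72.6% ± 0.142 in layer 5-like and 64.5% ± 0.718 in layer 6-like neurons. In the other GABAergic gates it made up 38.1% ± 3.57 (CGE), 40.8% ± 2.47 (striatal projection) and 37.0% ± 0.0261 (cycling progenitors). Without cells marked as doublets the share in cycling progenitors was 46.3% ± 0.330. The summed AMPA level was 3739 and 4358 CPM in MGE interneuron-like cells and 1802 and 1718 CPM in upper-layer-like neurons. It was lower in the other gates with a low *Gria2* share, at 972 and 877 CPM in CGE interneuron-like and 424 and 406 CPM in cycling GABAergic progenitor-like cells.

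*Gria3* took 19.0% ± 2.56 of the AMPA UMIs in radial glia-like cells, 15.1% ± 0.556 in layer 6-like neurons and 21.8% ± 6.06 in Olig-positive glial progenitor-like cells, against 0.881% ± 0.0676 in MGE interneuron-like cells. *Gria4* took 44.4% ± 2.23 in MGE interneuron-like cells and 42.5% ± 1.25 in cycling GABAergic progenitor-like cells, but 4.58% ± 0.492 in newborn excitatory-like neurons.

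**Figure D2:**
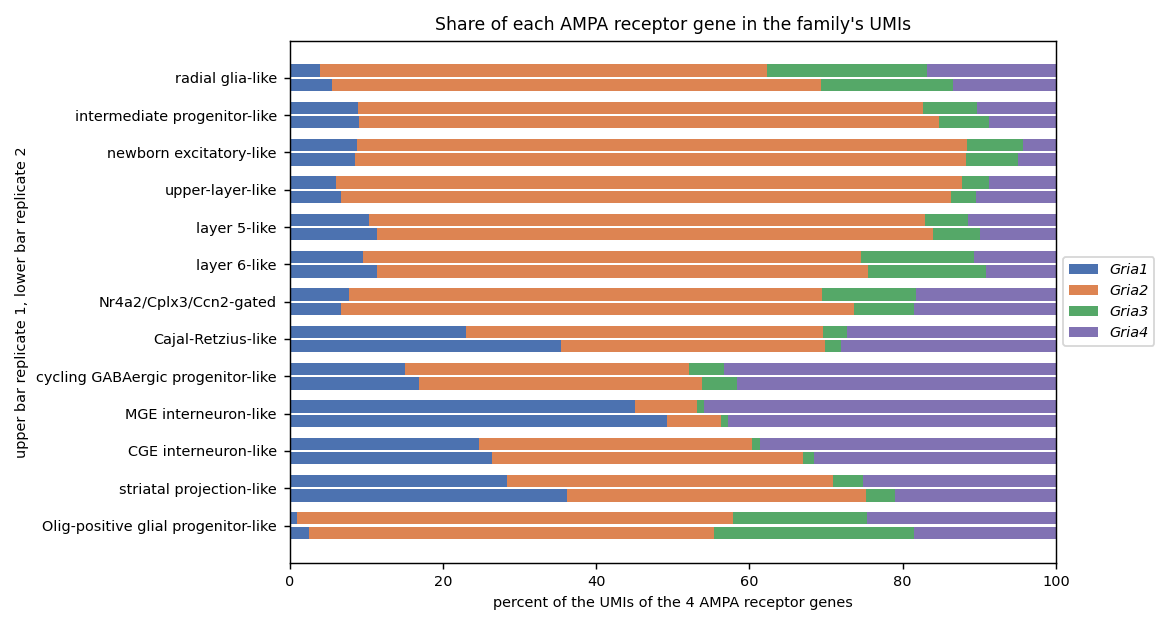
Share of *Gria1*, *Gria2*, *Gria3* and *Gria4* in the UMIs of these 4 genes (x axis, percent) for each neural gate, with the upper bar for replicate 1 and the lower for replicate 2. The *Gria2* share is 8.13% and 7.07% in MGE interneuron-like cells and 81.6% and 79.6% in upper-layer-like neurons.

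Among NMDA receptor genes, *Grin2b*, the *Grin2* gene of the young brain, was highest in *Nr4a2*/*Cplx3*/*Ccn2*-gated neurons, at 1092 and 1052 CPM. Layer 6-like neurons held 1001 and 905 CPM and layer 5-like neurons 882 and 942 CPM, which overlapped. MGE interneuron-like cells held 811 and 864 CPM, more than the 580.3 and 633 CPM of upper-layer-like neurons. Radial glia-like cells had 166 and 170.2 CPM, intermediate progenitor-like cells 128 and 149 CPM, and erythroid-like cells 66.9 and 103 CPM.

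*Grin1* was detected at far fewer UMIs. Its highest gates were the Cajal-Retzius-like cells, with 72 and 28.0 CPM on 14 and 13 UMIs, and the *Nr4a2*/*Cplx3*/*Ccn2*-gated neurons, with 38.8 and 31.9 CPM, and these overlapped. Layer 6-like, upper-layer-like, layer 5-like and MGE interneuron-like cells each lay between 21.1 and 30.3 CPM and overlapped in turn. Radial glia-like cells held 1.39 and 5.82 CPM, on 3 and 16 UMIs.

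*Grin2a*, the gene of the later *Grin2* subunit, differed widely between gates of excitatory neurons. It reached 110.5 and 99.2 CPM in *Nr4a2*/*Cplx3*/*Ccn2*-gated neurons and 44.3 and 46.2 CPM in layer 5-like neurons, but 4.0 and 9.96 CPM in layer 6-like neurons. Upper-layer-like neurons lay between these, at 23.5 and 23.9 CPM. Cycling GABAergic progenitor-like cells held 2 and 3 UMIs of *Grin2a* in all, at or under the 3 counts below which a level was treated as not detectable.

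*Grin2d*, whose subunit gives slowly closing receptors and is known from interneurons, was highest in CGE interneuron-like cells with 23.3 and 17.3 CPM. MGE interneuron-like cells followed with 8.17 and 7.95 CPM. Every gate of excitatory neurons lay at or below 4.31 CPM. The striatal gate held 1 and 9 UMIs of it and the radial glial gate 1 and 3.

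*Grin3a* encodes a subunit that lowers the calcium flux and the magnesium block of the receptor. Its highest levels lay outside the upper-layer, layer 5 and layer 6 gates. Olig-positive glial progenitor-like cells held 126 and 33.4 CPM, on 54 and 29 UMIs from 45 and 87 cells, so the libraries differed widely. Cajal-Retzius-like cells held 30.9 and 60.4 CPM, the *Nr4a2*/*Cplx3*/*Ccn2*-gated neurons 56.0 and 25.2 CPM, and cycling GABAergic progenitor-like cells 28.1 and 36.7 CPM. These highest 4 gates overlapped one another in turn. With stricter gates the *Nr4a2*/*Cplx3*/*Ccn2*-gated neurons held 82.6 and 39.6 CPM. Upper-layer-like neurons were lowest, at 3.66 and 3.98 CPM, and the erythroid-like gate held 0 UMIs in either library, which allows up to 5.90 and 3.31 CPM at 3 counts.

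Within the NMDA family, *Grin2b* took between 75.2% and 95.3% of the UMIs in every neural gate but that of Olig-positive glial progenitor-like cells, where it took 37.8% and 58.2% and *Grin3a* took 55.1% and 29.6%. In cycling GABAergic progenitor-like cells *Grin3a* took 17.7% ± 3.56, against 2.19% ± 0.820 in MGE, 2.56% ± 0.356 in CGE and 2.61% ± 0.148 in striatal projection-like neurons. *Grin2a* took 8.34% ± 0.217 in *Nr4a2*/*Cplx3*/*Ccn2*-gated neurons and 0.713% ± 0.471 in layer 6-like neurons. *Grin2d* took 3.08% ± 0.172 in CGE and 0.893% ± 0.0421 in MGE interneuron-like cells.

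**Figure D3:**
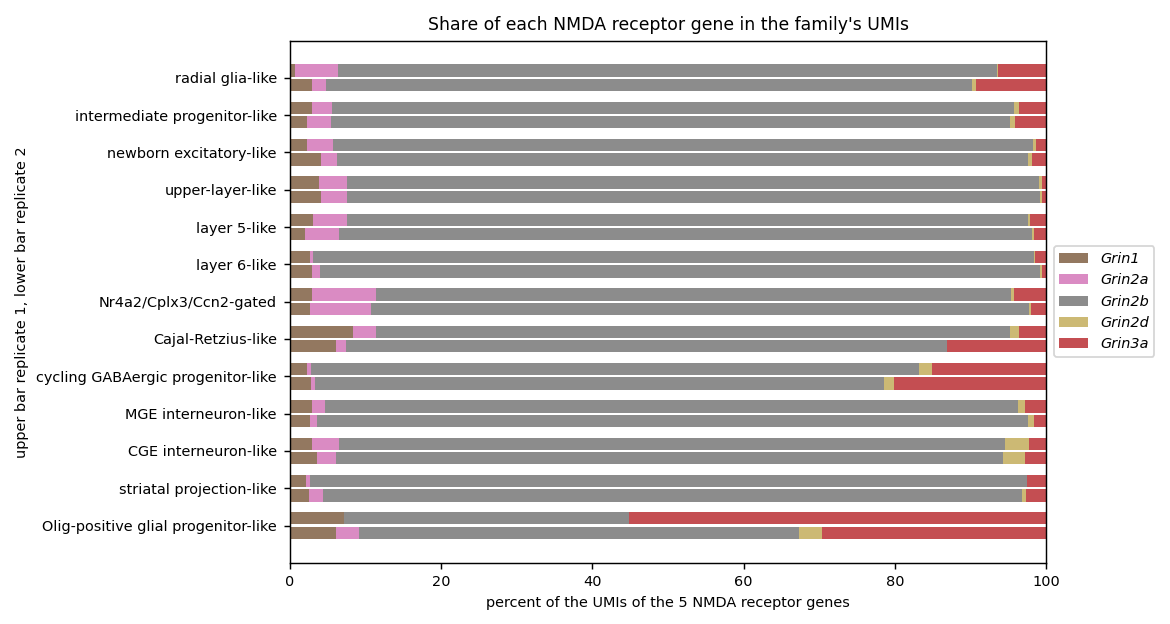
Share of *Grin1*, *Grin2a*, *Grin2b*, *Grin2d* and *Grin3a* in the UMIs of these 5 genes (x axis, percent) for each neural gate, with the upper bar for replicate 1 and the lower for replicate 2. *Grin2b* fills most of each bar apart from replicate 1 of Olig-positive glial progenitor-like cells, where it takes 37.8% and *Grin3a* 55.1%.

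Summed over the family, NMDA genes reached 1302 and 1212 CPM in *Nr4a2*/*Cplx3*/*Ccn2*-gated neurons, 885 and 920 CPM in MGE interneuron-like cells and 635 and 691 CPM in upper-layer-like neurons. Upper-layer-like neurons thus had the highest AMPA sum of the excitatory gates but a lower NMDA sum than layer 5-like neurons, with 981 and 1029 CPM, and layer 6-like neurons, with 1051 and 952 CPM. Radial glia-like cells held 245 and 258 CPM of AMPA and 191 and 199 CPM of NMDA genes. In the erythroid-like gate the sums were 156 and 203 CPM and 68.9 and 108 CPM.

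**Figure D4:**
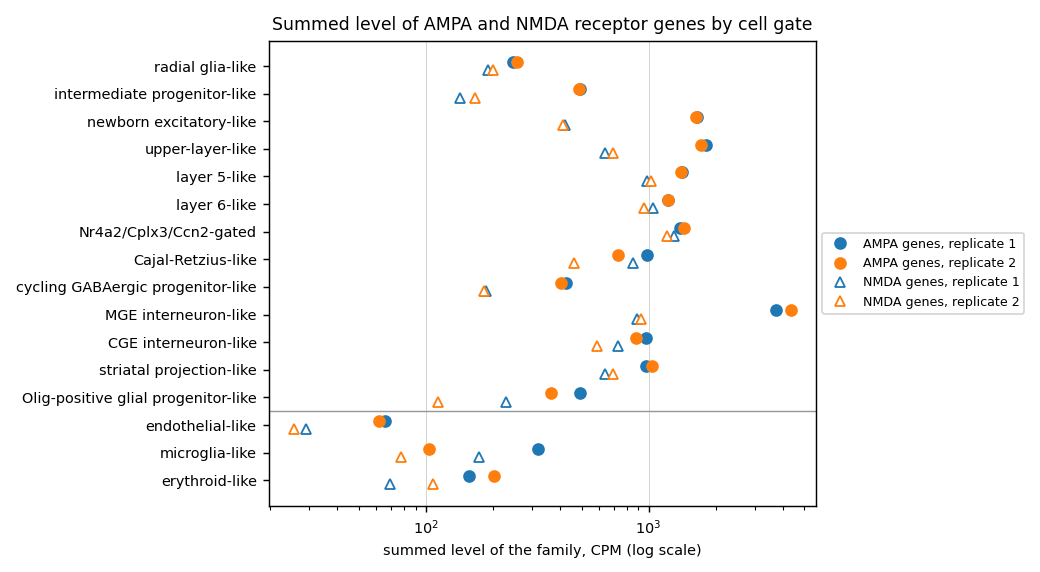
Summed level (x axis, CPM on a log scale) of the 4 AMPA genes (filled circles) and the 5 NMDA genes (open triangles) in each gate, with 1 point per library and gates of non-neural cells below the grey line. The AMPA sum is highest in MGE interneuron-like cells, at 3739 and 4358 CPM, and the NMDA sum in the *Nr4a2*/*Cplx3*/*Ccn2*-gated neurons, at 1302 and 1212 CPM.

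Differences between gates were tested with edgeR on the UMI sums of both libraries, with the library as a block and p-values adjusted over all genes tested, which were 14705 for the comparisons between gates and 10141 for the split of MGE cells by *Sst*. A gene is said to rise, fall or be called where its adjusted p was under 0.05. Excitatory neurons are the mean of the upper-layer, layer 5 and layer 6 gates on the log2 scale.

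The first comparisons follow the excitatory lineage. Between radial glia-like cells and excitatory neurons, 7 of the 9 genes rose and 0 fell, while 61.0% of all genes tested were called in either direction. *Gria1* rose by 3.52 on the log2 scale (SE 0.17, adjusted p = 5.4e-17), *Gria2* by 2.85 (SE 0.12, adjusted p = 1.6e-18) and *Grin2b* by 2.36 (SE 0.13, adjusted p = 5.4e-16). *Gria4* rose by 2.03 and *Gria3* by 1.13. *Grin1* rose by 2.87, with log2 ratios of 4.21 and 2.20 in the separate libraries, and *Grin2a* by 1.64, with 0.68 and 2.64. For these low genes the size of the difference thus varied between libraries. *Grin2d* (1.48, adjusted p = 0.080) and *Grin3a* (-0.68, adjusted p = 0.091) were not called. In radial glia-like cells *Gria1* is at or below the erythroid-like level and *Gria4* close to it, so the sizes of these differences are uncertain.

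Between radial glia-like and intermediate progenitor-like cells, 4 of the 9 genes were called, 2 in each direction, beside 39.4% of all genes. *Gria1* rose by 1.93 (SE 0.22, adjusted p = 1.7e-08) and *Gria2* by 1.33 (SE 0.13, adjusted p = 1.2e-09). The *Gria1* level of intermediate progenitor-like cells, 43.7 and 44.1 CPM, was close to the erythroid-like 27.6 and 41.9 CPM. Radial glia-like cells lay below that erythroid-like level, so the size of the *Gria1* difference is uncertain. In the other non-neural gates the mean *Gria1* level was 11.2 CPM (endothelial-like) and 41.0 CPM (microglia-like). *Gria3* fell by 0.45 (adjusted p = 0.029) and *Grin3a* fell by 1.27 (adjusted p = 0.025), calls that were lost without the filter on low counts and with a minimum of 3000 UMIs per cell, respectively. *Grin2b* did not pass (-0.19, SE 0.15, adjusted p = 0.32). Intermediate progenitors contained 8.19% and 10.7% of cells that a doublet score would remove, and radial glia 3.24% and 4.15%. Without such cells 6 genes were called, since *Grin2a* and *Grin2b* then passed as lower, by 1.53 and 0.56 on the log2 scale.

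From intermediate progenitor-like cells to newborn excitatory-like neurons, 7 of the 9 genes rose, beside 28.7% of all genes called. *Gria2* rose by 1.88 (SE 0.12, adjusted p = 5.4e-13), *Gria3* by 1.86 (SE 0.14, adjusted p = 1.5e-11) and *Gria1* by 1.75 (SE 0.14, adjusted p = 4.4e-11). *Grin1* rose by 1.80, *Grin2b* by 1.52, *Gria4* by 0.74 and *Grin2a* by 1.36, the last a call that was lost with stricter gates and with DESeq2. *Grin2d* (0.99) and *Grin3a* (0.19) did not pass. *Gria3*, which was lower in intermediate progenitors than in radial glia, thus rose at the next step.

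Between newborn and more mature excitatory neurons, 4 of the 9 genes were called, beside 15.0% of all genes. *Grin2b* rose by 1.04 (SE 0.11, adjusted p = 5.2e-08), *Gria4* by 0.91 (SE 0.13, adjusted p = 4.5e-06) and *Grin1* by 0.94 (SE 0.22, adjusted p = 0.0029). For *Grin1* the log2 ratios of the separate libraries were 1.43 and 0.55. *Gria2* fell by 0.36 (SE 0.091, adjusted p = 0.0064) in the mean of the 3 gates, which lay on both sides of newborn neurons: the layer 5-like and layer 6-like gates were below them in both libraries and the upper-layer-like gate was above them. *Gria1* gave -0.17 (SE 0.10, adjusted p = 0.31).

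Excitatory layers differed in both families. Between upper-layer-like neurons and the mean of the layer 5-like and layer 6-like gates, 5 of the 9 genes were called, beside 12.1% of all genes. In the deep layers *Grin3a* was higher by 1.80 (SE 0.38, adjusted p = 0.0010), *Gria3* by 0.99 (SE 0.11, adjusted p = 2.7e-08) and *Grin2b* by 0.57 (SE 0.11, adjusted p = 0.00033). The deep gates were uneven. *Gria3* stood at 79.3 and 84.4 CPM in layer 5-like and 180.3 and 190.2 CPM in layer 6-like neurons. *Grin3a* stood at 21.8 and 17.1 CPM in layer 5-like and 15.4 and 6.17 CPM in layer 6-like neurons. *Gria2* was lower by 0.71 in the deep layers, as a log2 difference of -0.71 (SE 0.096, adjusted p = 1.7e-06). *Gria4* gave -0.38 (adjusted p = 0.025), a call that was lost without TMM scaling (-0.33), with DESeq2 (-0.34) and without the library block (-0.37).

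The *Nr4a2*/*Cplx3*/*Ccn2*-gated neurons, 67 and 70 cells, had the highest NMDA sum of the gates. Compared with excitatory neurons, 5 of the 9 genes were higher and 0 lower, beside 4.11% of all genes called. *Grin2a* was higher by 2.37 (SE 0.26, adjusted p = 2.8e-07), *Grin3a* by 2.14 (SE 0.43, adjusted p = 0.0017), *Gria4* by 0.82 (SE 0.14, adjusted p = 0.00016), *Gria3* by 0.53 (adjusted p = 0.023) and *Grin2b* by 0.39 (adjusted p = 0.038). The call of *Grin2b* was lost without the library block (0.39), and that of *Gria3* with stricter gates and without the filter on low counts. The reference mean pools a high layer 5 and a low layer 6 level of *Grin2a*, both of which were below each value of these neurons.

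Cajal-Retzius-like cells, early neurons of the marginal zone that secrete reelin, were few, at 25 and 49 cells. They held 458 and 252 CPM of *Gria2*, 30.9 and 15.1 CPM of *Gria3*, on 6 and 7 UMIs, and 715 and 367 CPM of *Grin2b*, so the libraries differed widely. The doublet score marked 12% and 20.4% of these cells, and without them 6 genes were called, 3 in each direction. Compared with excitatory neurons, 5 of the 9 genes were called, beside 16.7% of all genes. *Gria3* was lower, with a log2 difference of -2.48 (SE 0.31, adjusted p = 4.3e-07), as were *Gria2* (-1.89, SE 0.14, adjusted p = 1.6e-11) and *Grin2b* (-0.92, SE 0.14, adjusted p = 1.6e-05). For *Grin2b* the log2 ratios of the separate libraries were -0.45 and -1.32. *Gria1* was higher by 0.69 (adjusted p = 0.0015) and *Grin3a* by 2.30 (adjusted p = 0.0019). *Gria4* was not called (0.45, adjusted p = 0.082) but passed as higher in 5 of the 8 refits, among them those without doublets (0.58) and with DESeq2 (0.55). The median of all genes in this comparison was -0.11 with TMM scaling, 0.03 with DESeq2 and 0.10 without scaling, and no gene of the set turned direction under either.

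MGE interneuron-like cells differed from excitatory neurons in all 4 AMPA genes, 2 in each direction. Of the 9 genes, 6 were called, 4 higher and 2 lower, beside 29.8% of all genes. *Gria1* was higher by 3.87 (SE 0.081, adjusted p = 2.3e-25) and *Gria4* by 3.63 (SE 0.090, adjusted p = 1.3e-23) on the log2 scale. *Gria2* was lower, at -1.77 (SE 0.11, adjusted p = 3.5e-14), and so was *Gria3*, at -1.41 (SE 0.13, adjusted p = 5.5e-10). The libraries gave 3.74 and 3.98 for *Gria1* and -1.83 and -1.72 for *Gria2*, so both libraries gave the same direction and nearly the same size. *Grin2d* was higher by 1.84 (adjusted p = 0.0015) and *Grin3a* by 1.04 (adjusted p = 0.018). The *Grin3a* level of the gate was uneven, at 142 and 80.0 CPM in its cells with at least 2 *Sst* UMIs and 8.74 and 5.91 CPM in its cells with none, where the excitatory mean was 13.7 and 9.11 CPM over tested genes. The main NMDA genes showed no call, with *Grin2b* at 0.05 (SE 0.10, adjusted p = 0.76) and *Grin1* at -0.09 (SE 0.20, adjusted p = 0.77). *Adar* and *Adarb1*, which encode RNA-editing enzymes, were not called either, with a median of -0.09.

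Among GABAergic neurons, *Gria1* and *Gria4* were lower in the CGE and striatal gates than in the MGE gate. Of the 9 genes, 4 were lower in CGE than in MGE interneuron-like cells and 0 were higher, beside 7.05% of all genes called. The log2 difference was -3.01 for *Gria1* (SE 0.12, adjusted p = 8.1e-18), -2.47 for *Gria4* (SE 0.12, adjusted p = 3.9e-15), -1.64 for *Gria3* (SE 0.24, adjusted p = 8.6e-06) and -0.53 for *Grin2b* (SE 0.13, adjusted p = 0.0060). The *Gria3* level of the CGE gate, 10.3 and 12.4 CPM, was near the erythroid-like 3.94 and 12.1 CPM, so the size of that difference is uncertain. *Gria2* was not called (0.21, SE 0.13, adjusted p = 0.45), nor was *Grin2d* (1.32, SE 0.43, adjusted p = 0.065), which passed as higher without the filter on low counts (1.28) and with only the compared gates in the fit (1.31).

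In striatal projection neuron-like cells, 5 of the 9 genes differed from the MGE gate, beside 13.8% of all genes. *Gria4* was lower, at -2.96 (SE 0.13, adjusted p = 3.0e-17), as was *Gria1*, at -2.55 (SE 0.11, adjusted p = 3.3e-17). *Grin2d* (-1.94, adjusted p = 0.021) and *Grin2b* (-0.44, adjusted p = 0.018) were lower and *Gria2* was higher, by 0.41 (adjusted p = 0.021). Without the library block the number called was 3, where *Gria2* and *Grin2b* lost their calls, and with a minimum of 3000 UMIs it was also 3, where *Grin2b* and *Grin2d* did. *Grin2d* rests on 1 and 9 UMIs in the striatal gate.

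**Figure D5:**
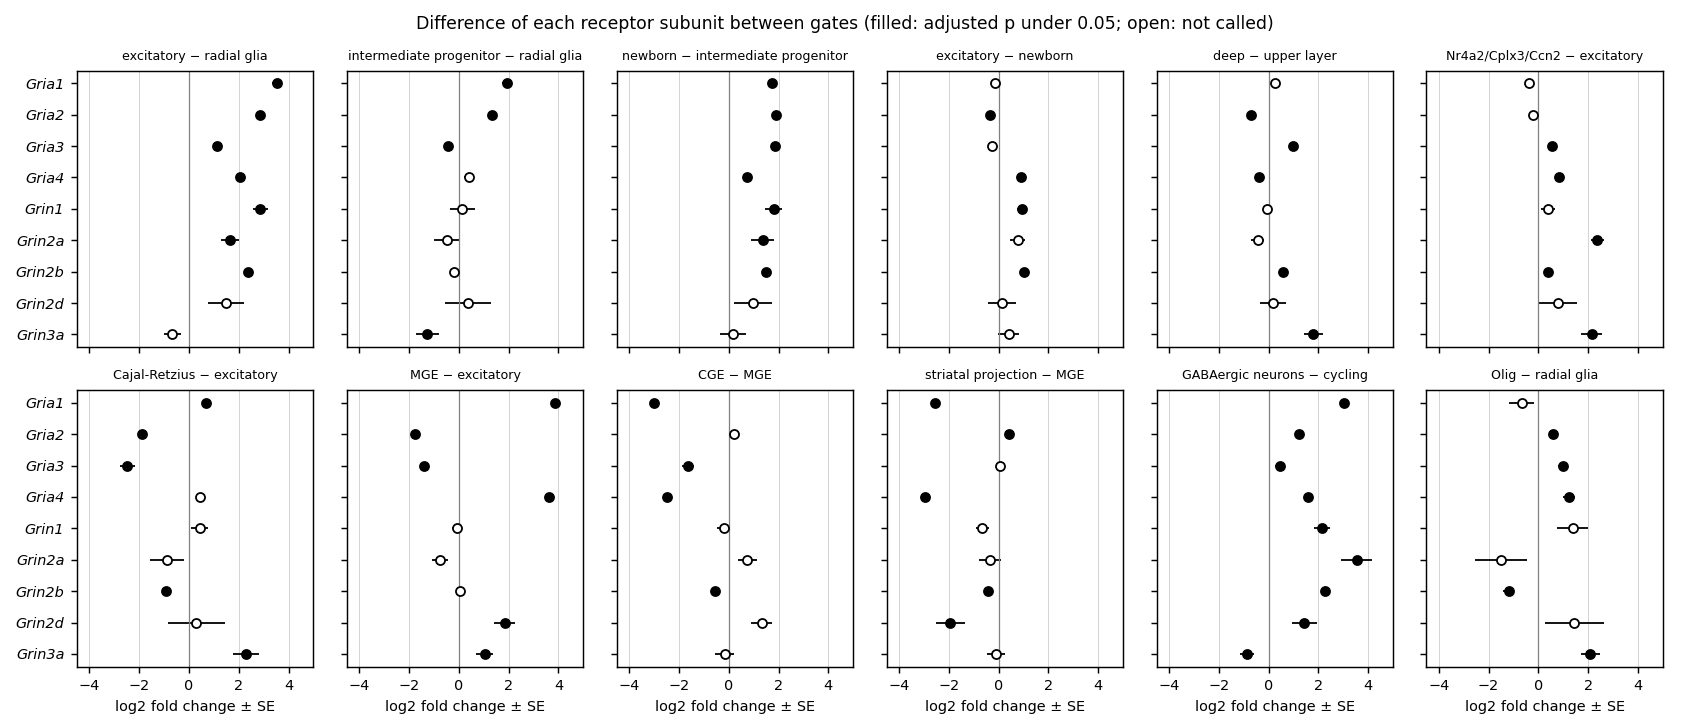
Log2 difference of each of the 9 genes (points, with SE bars) in 12 comparisons between gates, each coded as the first gate minus the second, with filled points for an adjusted p under 0.05 in edgeR. In the panel of MGE interneuron-like cells against excitatory neurons, *Gria1* (3.87) and *Gria4* (3.63) lie far to the right and *Gria2* (-1.77) and *Gria3* (-1.41) to the left.

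GABAergic neurons, taken as the mean of the MGE, CGE and striatal gates, differed from cycling GABAergic progenitor-like cells in all 9 genes, 8 higher and 1 lower, beside 44.5% of all genes called. *Gria1* rose by 3.02 (SE 0.12, adjusted p = 1.1e-18), *Grin2b* by 2.26 (SE 0.13, adjusted p = 5.9e-15), *Gria4* by 1.57 (SE 0.11, adjusted p = 1.7e-12) and *Gria2* by 1.24 (SE 0.11, adjusted p = 2.8e-10). *Grin1* rose by 2.14, *Grin2d* by 1.44 and *Gria3* by 0.46 (adjusted p = 0.0495). The log2 ratio of *Grin2d* was 0.69 in replicate 1 and 1.74 in replicate 2, and its striatal level, 0.533 and 3.12 CPM, was not above the 3.12 and 2.18 CPM of cycling cells in both libraries. For *Gria3* the CGE gate, at 10.3 and 12.4 CPM, lay below the cycling gate, at 19.3 and 18.5 CPM. *Grin3a* fell by 0.87 (SE 0.27, adjusted p = 0.0095), a call that was lost with DESeq2. The fitted value for *Grin2a*, 3.54, has 2 and 3 UMIs on the progenitor side and its size depends on the prior count.

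The cycling gate held 11.3% and 14.9% of cells that the doublet score would remove, against 2.05% and 3.82% in the MGE gate. Without them its levels went from 64.0 and 68.6 CPM to 26.1 and 21.5 CPM for *Gria1*, from 184 and 169 CPM to 127 and 107 CPM for *Gria4* and from 19.3 and 18.5 CPM to 8.09 and 12.1 CPM for *Gria3*. The differences were then 4.51, 2.16 and 1.26, of which that of *Gria1* stands over a level below the erythroid-like 27.6 and 41.9 CPM. *Gria3* lost its call in 5 other settings, among them the fit without the library block (0.45).

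Olig-positive glial progenitor-like cells, 45 and 87 cells, differed from radial glia-like cells in 5 of the 9 genes, 4 higher and 1 lower, beside 18.1% of all genes. *Grin3a* was higher by 2.09 (SE 0.40, adjusted p = 0.00024), with log2 ratios of 3.34 and 0.87 in the separate libraries. *Gria4* was higher by 1.23, *Gria3* by 0.98 and *Gria2* by 0.57. *Grin2b* was lower, at -1.19 (SE 0.22, adjusted p = 0.00015), with 86.1 and 65.7 CPM in these cells. The erythroid-like gate held 66.9 and 103 CPM, so the lower side is near that level and the size is uncertain. In the other non-neural gates the mean *Grin2b* level was 12.5 CPM (endothelial-like) and 113 CPM (microglia-like). The doublet score marked 2.22% of these cells in replicate 1 and 27.6% in replicate 2, and its part in the difference between the libraries was not tested.

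Within the MGE gate, cells with at least 2 *Sst* UMIs, 46 and 59 cells, were set against cells with none, 374 and 554 cells, in a fit of 4 sums with 1 residual degree of freedom. Of the 9 genes, 2 were higher and 0 lower, beside 1.86% of all genes called. *Grin3a* was at 142 and 80.0 CPM against 8.74 and 5.91 CPM, a log2 difference of 3.88 (SE 0.38, adjusted p = 9.1e-07). Earlier results of these data had already shown *Grin3a* in a similar split, so this value is no new support. *Grin2a* was at 68.7 and 22.4 CPM, on 14 and 7 UMIs, against 8.74 and 6.82 CPM, a difference of 2.39 (SE 0.55, adjusted p = 0.018) that lost its call with stricter gates (1.70). *Gria1* stood at 2622 and 2808 CPM against 1573 and 2072 CPM without a call (0.59, adjusted p = 0.21). Depth moved with this split, with medians of 4034 and 5017 UMIs in *Sst*-positive and 3260 and 3570 UMIs in *Sst*-negative cells, and its part was not tested. After thinning, *Grin3a* was found in 13.3% and 8.04% of *Sst*-positive and in 1.06% and 0.859% of *Sst*-negative cells (19.6% and 15.3%, and 2.67% and 1.99%, before thinning). The *Gria2* share of AMPA UMIs was 8.55% ± 0.953 in *Sst*-positive and 7.37% ± 0.693 in *Sst*-negative cells.

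Of 48 further genes of receptor assembly, scaffolding, RNA editing and related functions, 47 were tested between gates. In excitatory neurons against radial glia-like cells, 33 were higher and 3 lower, beside 61.0% of all genes called, with a median of 1.25 beside -0.02 over all genes. The largest were *Cacng2* (5.36), which encodes the AMPA receptor auxiliary subunit stargazin, *Camk2b* (4.81), a kinase subunit, and *Lrrtm4* (4.61), a synaptic adhesion protein. *Cacng2* held 0.933 and 0.730 CPM in radial glia-like cells, under the floor of 3 counts, so the size of its difference depends on the prior count. At the intermediate progenitor step 14 rose and 3 fell, a share of the 47 tested no higher than the 39.4% of all genes called, led by *Frrs1l* (4.32), which assists AMPA receptor assembly, *Lrrtm4* (2.74) and *Camk2a* (-2.62). In newborn excitatory-like neurons 25 rose and 5 fell, beside 28.7% of all genes, led by *Cacng5* (-4.99), *Cacng2* (3.26) and *Shisa7* (2.56). *Cacng5* held 24.6 and 25.3 CPM in intermediate progenitor-like cells and 0 and 1.41 CPM in newborn neurons, so the size of that fall depends on the prior count. More mature excitatory neurons had 14 higher and 2 lower, beside 15.0% of all genes, led by *Grip2* (2.27), *Camk2b* (1.74) and *Cnih3* (1.38).

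Deep layers had 13 of these genes higher and 4 lower than upper layers, beside 12.1% of all genes, led by *Lrrtm4* (2.41), *Cnih3* (2.37) and *Gsg1l* (2.03), the latter both encoding AMPA receptor auxiliary proteins. The *Nr4a2*/*Cplx3*/*Ccn2*-gated neurons had 10 higher and 0 lower, beside 4.11% of all genes, led by *Lrrtm3* (1.55), *Dlg2* (1.46), which encodes a scaffold of NMDA receptors, and *Shisa9* (1.22). Cajal-Retzius-like cells had 6 higher and 9 lower, beside 16.7% of all genes, led by *Cacng5* (4.72), *Homer2* (3.15) and *Cacng8* (-2.84). *Cacng8* stood there at 0 and 4.34 CPM, and *Cacng5* at 15.5 and 8.67 CPM against 0.426 and 0.812 CPM, so the sizes of both differences rest on few UMIs and depend on the prior count. 

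MGE interneuron-like cells had 14 of these genes higher and 15 lower than excitatory neurons, beside 29.8% of all genes, with a median of 0.06. Of the 21 genes of AMPA receptor auxiliary and assembly proteins 7 were higher and 9 lower, and of the 22 genes of scaffolds, trafficking and signalling 7 were higher and 6 lower. The largest were *Cacng3*, an AMPA receptor auxiliary gene, at 77.4 and 109 CPM against 3.62 and 4.03 CPM (5.19), *Dlgap2*, a postsynaptic scaffold gene, at 1311 and 1531 CPM against 67.5 and 72.1 CPM (4.58), and *Lrrtm3* (-4.05). Both *Cacng3* and *Dlgap2* were also lower in CGE than in MGE interneuron-like cells, at -4.49 and -3.20, and *Lrrtm3* was higher there (3.55), in a comparison with 3 higher and 8 lower, beside 7.05% of all genes. Striatal projection-like neurons had 6 higher and 11 lower, beside 13.8% of all genes, led by *Lrrtm3* (4.67), *Dlgap2* (-3.89) and *Shisa6* (-3.70). These comparisons share the MGE gate, where *Lrrtm3* held 3.59 and 1.81 CPM, so the sizes of its differences rest on few UMIs. GABAergic neurons had 32 higher and 1 lower than cycling progenitors, beside 44.5% of all genes, led by *Shisa7* (3.45), *Shank1* (2.75) and *Shank3* (2.62). *Shisa7* held 1.57 and 1.09 CPM in the cycling gate, so the size of its difference rests on few UMIs. *Shank3* gave log2 ratios of 3.32 and 2.23 in the separate libraries. Olig-positive glial progenitor-like cells had 10 higher and 3 lower than radial glia, beside 18.1% of all genes and with a median of -0.06, led by *Lrrtm3* (3.87), *Nptx2* (3.59) and *Lrrtm4* (3.44). *Nptx2* held 0.466 and 1.46 CPM in radial glia-like cells, so the size of its difference is uncertain. *Lrrtm3* held 1.40 and 7.30 CPM there, and its log2 ratios in the separate libraries were 5.91 and 2.86. In the *Sst* split 3 of 39 tested were higher, beside 1.86% of all genes called: *Olfm3* (1.36), *Lrrtm4* (1.09) and *Olfm2* (1.06).

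Across the 26 sums of the neural gates, the members' levels on the log2(CPM + 1) scale followed one another to different degrees. These correlations are descriptions only, since sums of 1 gate repeat each other and sums of 1 library share its depth. The highest was that of *Gria1* and *Gria4* (r = 0.81), followed by *Grin1* and *Grin2b* (r = 0.79), and the lowest that of *Gria2* and *Grin3a* (r = -0.46). Among 7265 other genes with a mean of at least 20 CPM, those most like *Gria1* were *A330076H08Rik* (r = 0.97), *A230057D06Rik* (0.95) and *Tbc1d9* (0.93). For *Gria2* they were *Nrp1* (0.96), *Rnf182* (0.94) and *Rabgap1l* (0.94), for *Gria3* *Alcam* (0.82), *Smarcd3* (0.81) and *6530403H02Rik* (0.79), and for *Gria4* *Dlgap2* (0.92), *Pde4dip* (0.91) and *Gm37679* (0.90). Of these, *Nrp1* is a receptor for semaphorins and *Alcam* a cell adhesion molecule.

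For the NMDA genes, those most like *Grin1* were *Kcnma1* (r = 0.94), *Nrxn2* (0.93) and *Psd* (0.92), and those most like *Grin2b* were *Shank1* (0.97), *Mapt* (0.95) and *Kif3c* (0.95). *Grin2a* was followed by *Gabra2* (0.88), *Rras2* (0.84) and *Epha6* (0.82), *Grin2d* by *Pde4dip* (0.78), *Grip1* (0.78) and *Kansl1l* (0.77), and *Grin3a* by *Tm9sf4* (0.77), *Ano6* (0.77) and *Slc9a9* (0.73). *Shank1* encodes a postsynaptic scaffold and *Mapt* the axonal protein tau. Among the NMDA genes, *Grin2b* and *Grin1* thus had the closest companions, whereas no gene reached 0.80 for *Grin2d* or *Grin3a*. Whether low UMI counts play a part was not tested.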

How the data were processed

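Single-cell RNA sequencing was performed by the authors on 2 WT libraries of E16.5 cerebral cortex, with papain dissociation and a 10x Genomics droplet kit that captures the 3′ ends of poly(A) RNA. The deposited values are raw UMI counts for each gene in each barcode that Cell Ranger called a cell, without normalization. The submitters' processing notes give Cell Ranger 7.0.0 and build mm10, whereas the file header gives 7.1.0. Whether introns or strand were used in counting is not given in the sources used here. Library totals are given with the results, and intervals and floors cover counting error only.

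Cells with 1500 to 60000 UMIs and under 10% mitochondrial UMIs were kept. A gate required at least 3 UMIs of its marker genes (2 for smaller lists) and at most 1 of opposing lists. No gate used a glutamate receptor gene, and 31.7% and 36.1% of cells entered none. Doublets were not removed in the results given first, and Scrublet (scanpy 1.11.5), at 0.8% per 1000 barcodes, marked 432 and 1111 cells for an alternative. UMIs were summed per library and gate, since cells are not replicates. The 26 sums of 13 neural gates entered 1 fit in edgeR 4.0.16 (R 4.3.3), with TMM scaling, a filter that kept genes reaching 10 counts in 2 or more sums, the quasi-likelihood test, and Benjamini-Hochberg adjustment over all genes tested. Sums with the same library number come from the same library, and the library therefore entered as a block, which left 12 residual degrees of freedom. A call is an adjusted p under 0.05. The SE is the log2 fold change divided by the square root of F. CPM in the tests of further genes are scaled to the UMIs of tested genes. Single-library ratios used a prior count of 0.5.

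The receptor genes, gates and lists were chosen with earlier results of these data known. The 9 receptor genes were named in every comparison. Of the 48 further genes, 3 were named per comparison by the size of their change among those called, given 10 CPM or more in the higher gate and the same direction in both libraries, and for each receptor gene the 3 genes with the highest correlation. The fit was tested on simulated data. Alternatives were a minimum of 3000 UMIs, removal of doublets, stricter gates (1 more UMI), DESeq2 1.42.0, no TMM, no filter, no block, a fit of the compared gates alone, and each library alone.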

Additional observations from a re-analysis of the deposited data

How the results depend on the processing

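Of 117 differences of receptor genes, 68 were called, and 56 of these stayed called in every refit that gave an adjusted p while 12 lost the call in at least 1. None of the 68 turned direction in a refit or in either library alone. Of the 49 uncalled differences, 14 passed in at least 1 refit, and for 17 the libraries alone gave opposite directions, such as *Grin2d* in Cajal-Retzius-like cells (1.80 and -3.53). In refits, direction turned for *Grin1* between intermediate progenitors and radial glia (-0.71 without doublets, -0.26 with stricter gates), for *Grin2b* between MGE interneurons and excitatory neurons (-0.039 with at least 3000 UMIs), for *Grin3a* between striatal neurons and MGE interneurons (0.030 with stricter gates), and, all with stricter gates, for *Grin2d* between newborn neurons and intermediate progenitors (-0.32), deep and upper layers (-0.054), and Olig-positive progenitors and radial glia (-3.46). The cause was not tested. The number called between striatal and MGE neurons was 3 with at least 3000 UMIs and 3 without the replicate block. In the *Sst* split it was 1 with stricter gates and 1 with DESeq2, which gave no adjusted p for 3 of the 9 genes. All genes called there were 189, but 67 with DESeq2, 116 without the block, 340 with at least 3000 UMIs, 346 without TMM, 300 without doublets and 286 without the filter. The *Grin3a* share of NMDA UMIs in cycling GABAergic progenitors was 23.1% without doublets. Removing the block changed no call beyond those named above, namely *Gria4* between layers, *Grin2b* in the *Nr4a2*/*Cplx3*/*Ccn2*-gated neurons, *Gria2* and *Grin2b* in striatal neurons and *Gria3* in GABAergic neurons. With 1 library there are no residual degrees of freedom, so only ratios are given. The gate in which each receptor gene was highest was the same in all 4 cell selections. Counts under about 20 UMIs per gate limit *Grin1*, *Grin2a* and *Grin2d* in progenitors and in Cajal-Retzius-like cells.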
